A study of Mus musculus with 14 samples.

Results

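The Bcl2 family decides whether the outer membrane of the mitochondria stays closed. Pro-survival members hold the effectors Bax and Bak1 in check, and the BH3-only members (here Bid, Bcl2l11, Bbc3 and Pmaip1) free or activate the effectors when a cell is stressed. Bcl2l10, Bcl2, Bcl2l1 and Mcl1 were counted here as pro-survival members, and whether Bcl2l10 acts as one in these embryos was not tested. Bcl2l10, also known as Diva or Boo, is known for its expression in the oocyte, whose stored RNA the embryo still holds at the two-cell stage. These 10 genes were chosen by name, 4 as pro-survival and 6 as pro-death members, and all 10 were found among the 20636 genes in the deposited files.

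The values came from RNA sequencing of 14 single embryos made by somatic cell nuclear transfer (SCNT), in which the nucleus of a body cell is placed in an enucleated oocyte. All were B6D2F1 embryos collected at 28 h, and the study describes cumulus cells, the cells that surround the oocyte, as nuclear donors. The 6 groups, named as the labels name them, were control (3 embryos, neither agent), VitaminC(0-8h) (1 embryo), VitaminC(8-15h) (2 embryos), TSA(0-8h) (3 embryos), TSA(0-8h)+VitaminC(0-8h) (2 embryos) and TSA(0-8h)+VitaminC(8-15h) (3 embryos). Trichostatin A (TSA), an inhibitor of histone deacetylases, was given at 50 nM, and vitamin C (VC) at 10 µg/ml, in the hours that the name of the group gives. An embryo fertilised by sperm was not analysed here, so the control is an untreated clone and not a normal embryo. Only a part of the RNA of each embryo entered its library, after 2 rounds of PCR.

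Between 3021540 and 13589389 reads were counted per embryo, and 3130 to 6231 genes reached 1 RPKM (reads per kilobase of a transcript, relative to all reads counted in that embryo). Embryos of 1 group differed widely. Of 11343 genes with at least 1 RPKM in any embryo, 853 (7.52%) had it in all 14. Of 8 oocyte and early embryo markers, only Bmp15 reached 1 RPKM in every embryo, at 91.3 to 520 RPKM. Dppa3 reached 1 RPKM in 13 embryos, Nlrp5 in 12, Gdf9 in 11, Zp1 in 10, Zp3 in 8, Zp2 in 7 and Ooep in 3. Of 11 cumulus and granulosa cell markers, 9 stayed under 1 RPKM in all embryos, Has2 reached 1.82 RPKM in a single embryo, and Amhr2 ranged from 0 to 144 RPKM. RPKM is a share of the reads of an embryo, so less RNA in each cell and fewer cells with the RNA cannot be told apart. The study describes independent nuclear transfer experiments for the TSA(0-8h)+VitaminC(8-15h) embryos. For the other groups the sources used here do not say, so p-values measure only the spread between these embryos, which may be technical in part.

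Pro-survival members made up most of the family's RNA. The order of the medians over the 14 embryos was Bcl2l10 (128 RPKM), Bcl2l1 (23.4 RPKM), Mcl1 (12.5 RPKM), Bcl2l11 (0.722 RPKM), Bbc3 (0.223 RPKM), Bid (0.0610 RPKM) and Bcl2 (0.0216 RPKM), with Bax, Bak1 and Pmaip1 at a median of 0. The quartiles were 96.9 and 425 RPKM for Bcl2l10 and 9.97 and 76.6 RPKM for Bcl2l1, and these intervals did not overlap. All later neighbours in this order overlapped between their quartiles. Bcl2l10 reached 1 RPKM in 14 embryos, Bcl2l1 in 11, Mcl1 in 9, Bcl2l11 in 6, Bid in 3, Bbc3 and Bax in 2 and Bak1 in 1. Bcl2 and Pmaip1 reached it in none.

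**Figure D1:**
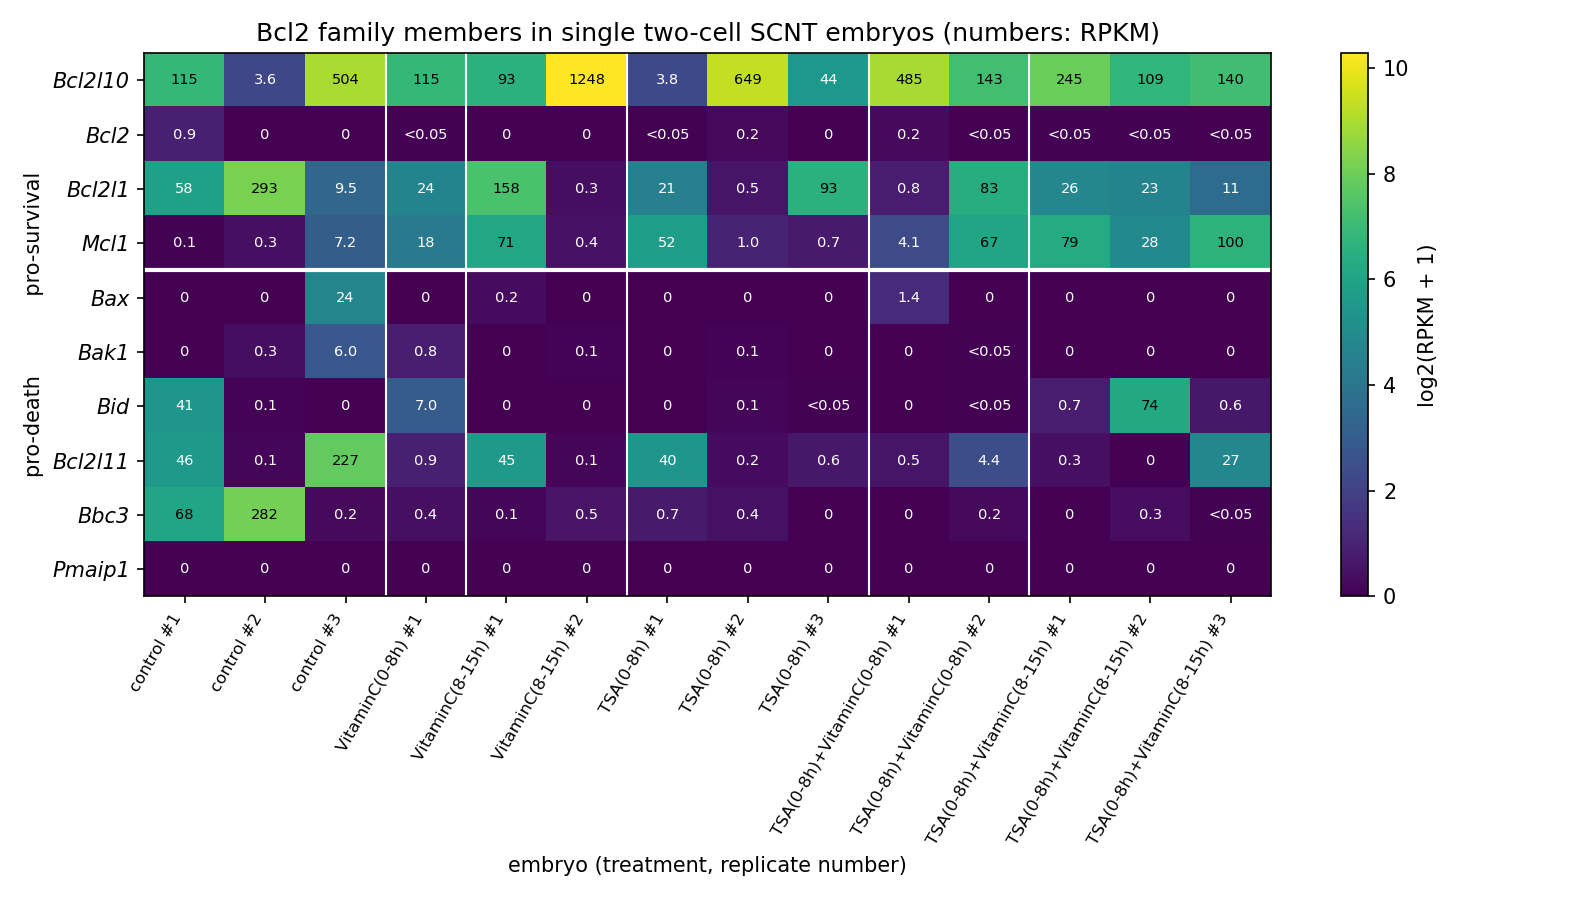
RPKM of the 10 members (rows, pro-survival above the white line and pro-death below it) in each of the 14 embryos (columns, by treatment and replicate number), with colour for log2(RPKM + 1). Bcl2l10 was at 1 RPKM or more in every embryo, whereas every pro-death member was under 1 RPKM in at least 8 of the 14 embryos and Pmaip1 was at 0 in all.

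Bcl2l10 (mm9, chromosome 9, 75195565 to 75199439) was the most abundant pro-survival member in 10 of 14 embryos. Control embryos had 115, 3.56 and 504 RPKM, and TSA(0-8h) embryos had 3.77, 649 and 44.0 RPKM. TSA(0-8h)+VitaminC(8-15h) embryos had 245, 109 and 140 RPKM, all within the range of the control embryos. TSA(0-8h)+VitaminC(0-8h) embryos had 485 and 143 RPKM, VitaminC(8-15h) embryos 92.9 and 1248 RPKM, and the VitaminC(0-8h) embryo 115 RPKM. Both embryos under 10 RPKM had received no VC, and the lowest of the 8 VC-treated embryos was at 92.9 RPKM. In the fit of any VC against no VC, with TSA as a second term, Bcl2l10 was 1.89 higher on the log2(RPKM+1) scale (SE 0.87), with a limma adjusted p of 0.605. This difference was 1.05 without TSA(0-8h) replicate 1, 1.15 without control replicate 2 and 1.22 with median-ratio scaling, the lowest values among its alternatives. The two-sided exact permutation test of 8 against 6 embryos gave p = 0.171 for a difference of 1.85. The difference for TSA in the same fit was -0.31 (SE 0.87, limma adjusted p = 1.00).

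Bcl2l1 (Bcl-xL; chromosome 2, 152593052 to 152657464) protects many cell types. It was at 57.7, 293 and 9.50 RPKM in control embryos and at 21.4, 0.486 and 93.2 RPKM in TSA(0-8h) embryos. TSA(0-8h)+VitaminC(8-15h) embryos had 26.4, 23.0 and 11.4 RPKM, which lay close together inside the range of both other groups. TSA(0-8h)+VitaminC(0-8h) embryos had 0.776 and 82.9 RPKM, VitaminC(8-15h) embryos 158 and 0.321 RPKM, and the VitaminC(0-8h) embryo 23.8 RPKM. The 3 embryos under 1 RPKM, each with 5 to 9 reads of Bcl2l1, were in 3 different treatment groups. No comparison gave an adjusted p under 0.05, and the differences ranged from -1.95 (SE 1.97) for TSA(0-8h) against control to 0.46 (SE 1.88) for TSA(0-8h)+VitaminC(8-15h) against TSA(0-8h).

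Bcl2l10 and Bcl2l1 tended to be high in different embryos. The 3 embryos under 1 RPKM of Bcl2l1 had 1248, 649 and 485 RPKM of Bcl2l10, which were 3 of the 4 highest levels of Bcl2l10. Control replicate 2, with the highest Bcl2l1 (293 RPKM), had the lowest Bcl2l10 (3.56 RPKM). Over the 14 embryos Pearson's r of the log2(RPKM+1) values was -0.71 (permutation p = 0.00446) and Spearman's rho was -0.75 (permutation p = 0.00318). Among the 28 pairs of the 8 members that reached 1 RPKM, the adjusted p-values were 0.125 and 0.0890, so the relation did not pass the threshold of 0.05. Without the 2 embryos farthest from the median of Bcl2l10, r was -0.88. Lanes were read from the library identifiers and are not stated in the sample labels. Within lanes, r was -0.91 over the 6 embryos of lane 4 and -0.32 over the 5 embryos of lane 3. Lane 5 held 3 embryos, too few for a value. Both levels are shares of the same library.

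Mcl1 (chromosome 3, 95462643 to 95467099), a short-lived pro-survival protein, separated the sequentially treated embryos, TSA(0-8h)+VitaminC(8-15h), from the control embryos. Control embryos had 0.0529, 0.334 and 7.18 RPKM (1, 8 and 340 reads). TSA(0-8h)+VitaminC(8-15h) embryos had 79.2, 28.5 and 100 RPKM (1200, 772 and 4287 reads), and the groups did not overlap. The same was true, in either direction, of 21.3% of all genes tested in this comparison. TSA(0-8h) embryos had 52.5, 0.954 and 0.683 RPKM, so that 1 of them was as high as the sequentially treated embryos. TSA(0-8h)+VitaminC(0-8h) embryos had 4.13 and 67.0 RPKM, VitaminC(8-15h) embryos 71.2 and 0.436 RPKM, and the VitaminC(0-8h) embryo 17.9 RPKM. Each of the 3 groups of more than 1 embryo other than control and TSA(0-8h)+VitaminC(8-15h) thus held a high and a low embryo.

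Mcl1 was 4.78 higher on the log2(RPKM+1) scale in TSA(0-8h)+VitaminC(8-15h) than in control embryos (SE 1.70), with a limma adjusted p of 0.140 over the 3323 genes tested. The median difference of all genes tested was 0.78 in that fit, and with the embryos scaled by median ratios Mcl1 was 4.15 higher (SE 1.70, limma adjusted p = 0.205). With limma-voom on the recovered reads, a fit chosen after seeing the data, it was 7.13 higher (SE 1.75) and passed the threshold with an adjusted p of 0.00290. In all of these fits Mcl1 passed the filter through the treated group, where it was high. With limma on log2(RPKM+1) and a filter blind to the groups its adjusted p was 0.553, and with no filter 0.725. Groups without overlap were seen for 21.3% of all genes tested in this comparison, and an unadjusted p under 0.05 for 17.7%. Against TSA(0-8h) embryos, Mcl1 was 3.47 higher (SE 1.84, limma adjusted p = 0.360) with overlapping groups. In the fit of any VC against no VC the difference was 2.64 (SE 1.34, limma adjusted p = 0.620). The median was 47.7 RPKM in the 8 embryos with VC and 0.819 RPKM in the 6 without it, and the exact permutation test of this difference of 2.83 in mean log2 value gave an unadjusted p of 0.040.

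**Figure D2:**
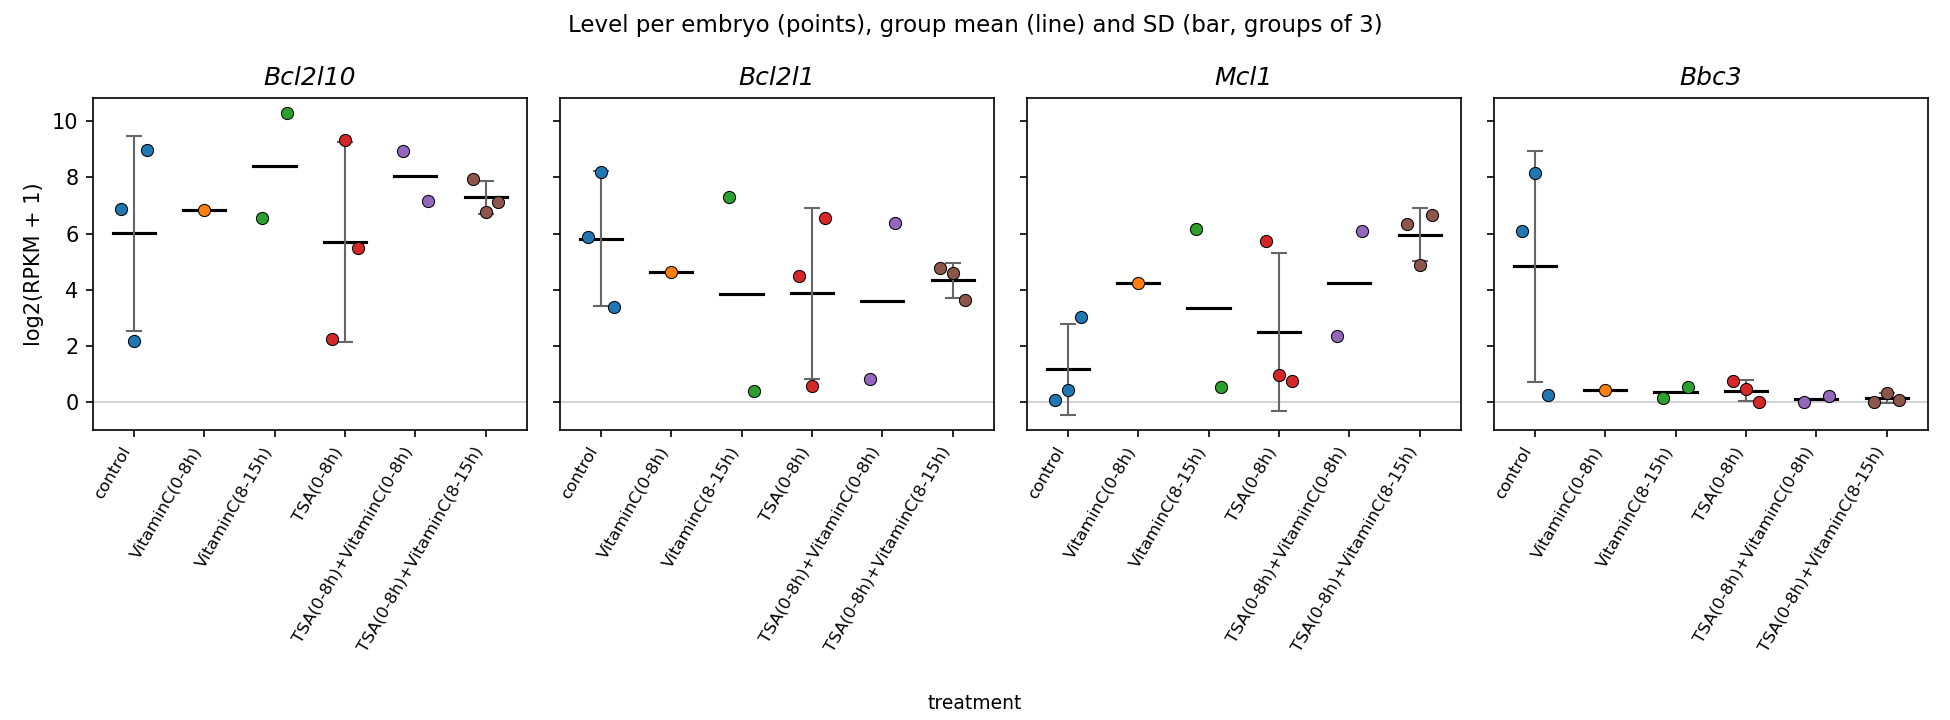
log2(RPKM + 1) of Bcl2l10, Bcl2l1, Mcl1 and Bbc3 in each embryo (points) of the 6 treatments, with the group mean (line) and SD (bar, groups of 3 only). For Mcl1 the 3 TSA(0-8h)+VitaminC(8-15h) embryos lie above all 3 control embryos (groups without overlap: 21.3% of genes tested). For Bbc3 all 11 treated embryos lie below 1 RPKM, with 2 control embryos far above.

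Other properties of the embryos moved with Mcl1 in this comparison. Genes at 1 RPKM or more numbered 5134 to 5350 in TSA(0-8h)+VitaminC(8-15h) embryos and 3613 to 5033 in control embryos. The summed level of 8 genes of the two-cell embryo (Zscan4c, Zscan4d, Zscan4f, Tcstv1, Tcstv3, Tdpoz1, Tdpoz3 and Tdpoz4) was 292 to 524 RPKM and 4.66 to 191 RPKM in the respective groups. Their part in the difference of Mcl1 was not tested.

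Bcl2 (chromosome 1, 108434755 to 108610851), the founding pro-survival member, was almost absent. Its highest level was 0.889 RPKM (18 reads) in control replicate 1, and all 14 embryos together held 35 reads. It was at 0 in 5 embryos and did not pass the filter on low values in any comparison, and the exact permutation tests gave p = 0.840 for any TSA and p = 0.480 for any VC.

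The effectors were hardly seen outside 1 embryo. Bax (chromosome 7, 52717065 to 52722268) was at 24.4 RPKM (288 reads) in control replicate 3, at 1.41 RPKM (4 reads) in TSA(0-8h)+VitaminC(0-8h) replicate 1, at 0.233 RPKM (2 reads) in VitaminC(8-15h) replicate 1 and at 0 in the other 11. Bak1 (chromosome 17, 27156755 to 27165954) was likewise highest in control replicate 3, at 5.99 RPKM (163 reads), with 0.821 RPKM in the VitaminC(0-8h) embryo and at most 0.291 RPKM elsewhere. Both pore-forming genes thus had their highest level in the same control embryo. For any TSA against no TSA, Bak1 gave an unadjusted exact permutation p of 0.0353, but all 8 TSA-treated embryos had 0 or 1 read. Ggnbp1 runs over the whole of Bak1 on the opposite strand, and the sources used here do not state whether reads were counted by strand.

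Of the BH3-only members, Bid, Bcl2l11 and Bbc3 reached 10 RPKM in 2, 5 and 2 embryos, and Pmaip1 had no reads. Bid (chromosome 6, 120841948 to 120866871), which links death receptors to the mitochondria, was at 40.9 RPKM in control replicate 1, at 74.2 RPKM in TSA(0-8h)+VitaminC(8-15h) replicate 2 and at 6.95 RPKM in the VitaminC(0-8h) embryo. The remaining 11 embryos had at most 0.730 RPKM, including both other control and both other TSA(0-8h)+VitaminC(8-15h) embryos. Its last 913 bases overlap Bcl2l13 on the opposite strand, whose RNA was at 1 RPKM or more in 11 embryos. For any VC against no VC, Bid differed by 0.45 (SE 1.04, limma adjusted p = 0.941).

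Bcl2l11 (Bim; chromosome 2, 127951774 to 127988283), which binds all pro-survival members, was the most abundant pro-death member in 6 embryos. Control embryos had 45.7, 0.0898 and 227 RPKM. TSA(0-8h) embryos had 40.3, 0.237 and 0.577 RPKM, and TSA(0-8h)+VitaminC(8-15h) embryos 0.331, 0 and 27.2 RPKM. VitaminC(8-15h) embryos had 45.4 and 0.0937 RPKM, TSA(0-8h)+VitaminC(0-8h) embryos 0.504 and 4.42 RPKM, and the VitaminC(0-8h) embryo 0.868 RPKM. High and low embryos thus occurred in most groups, and the difference was -1.36 (SE 1.43, limma adjusted p = 0.991) for TSA and -1.28 (SE 1.43, limma adjusted p = 0.839) for VC. The level given is that of 2 transcripts, of 395 and 4869 bases as recovered from the read steps, and other isoforms of Bcl2l11 were not analysed here. The transcript given as 395 bases held reads in only 2 embryos, so its length and reads are lower bounds. It gave 169 RPKM of the level in control replicate 3 (at least 909 reads) and 36.9 RPKM of that in TSA(0-8h) replicate 1 (at least 44 reads).

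Bbc3 (Puma; chromosome 7, 16894965 to 16903554), a BH3-only gene switched on by p53 among other factors, was high in 2 control embryos and in no treated embryo. Control replicate 1 had 67.7 RPKM (725 reads), control replicate 2 had 282 RPKM (3827 reads) and control replicate 3 had 0.186 RPKM (5 reads). All 11 treated embryos, across the 5 treatments, had at most 0.670 RPKM and 0 to 6 reads. How many other genes were high in control embryos only was not examined. The control group overlapped the treated groups through its replicate 3, and Bbc3 did not pass the filter of any comparison, since it was above 1 RPKM in 2 embryos only. Without a filter, the difference for TSA(0-8h)+VitaminC(8-15h) against control was -4.70 (SE 2.24, limma adjusted p = 0.725). Exact permutation tests gave p = 0.0746 for any TSA against no TSA (difference -2.38) and p = 0.0586 for any VC against no VC (difference -2.40). Pmaip1 (Noxa) had no read in any of the 14 embryos, in libraries where 3 reads on a transcript of 1 kb equal 0.221 to 0.993 RPKM.

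The 250 bases before a start of Mcl1, the member whose sequentially treated and control embryos did not overlap, and of Bbc3, the member high in 2 control embryos, are shown from RefSeq (GRCm38.p6, plus strand, 5′ to 3′). Capitals mark the GC box GGGCGG on either strand.
Mcl1, chr3:95658471-95658720: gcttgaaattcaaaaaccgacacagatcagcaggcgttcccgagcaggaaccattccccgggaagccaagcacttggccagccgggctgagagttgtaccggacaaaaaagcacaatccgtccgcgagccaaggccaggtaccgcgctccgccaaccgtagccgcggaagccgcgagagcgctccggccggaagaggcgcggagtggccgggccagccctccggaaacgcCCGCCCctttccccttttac
Bbc3, the first of 3 starts, chr7:16309333-16309582: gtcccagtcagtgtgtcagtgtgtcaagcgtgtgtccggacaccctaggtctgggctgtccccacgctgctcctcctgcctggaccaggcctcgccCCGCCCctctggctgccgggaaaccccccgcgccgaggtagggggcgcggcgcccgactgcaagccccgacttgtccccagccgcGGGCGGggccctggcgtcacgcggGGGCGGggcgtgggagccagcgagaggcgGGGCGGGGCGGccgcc
The Mcl1 window held 1 GC box and 26 CpG, and the Bbc3 window held 5 GC boxes, of which the last pair overlap, and 27 CpG. Of 32851 promoter windows of this length, 32.7% held a GC box on either strand, and the median number of CpG was 6. Neither window held CCAAT (33.8% of windows) or TATAAA (12.4%) on either strand. Neither held a full match to the p53 half-site (7.13%). Only full matches were counted, and whether either window holds a p53 site with mismatched bases was not tested. The windows of the other Bbc3 starts, not shown, differed. The window chr7:16310181-16310430 held 1 CCAAT, 7 GC boxes and 37 CpG, and chr7:16310011-16310260 held 1 GC box and 23 CpG. The promoter table had entries for 8 of the 10 members.

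Summed over the pro-death members, every control embryo was above every treated embryo. The sums were 154, 283 and 258 RPKM in control embryos. In the 11 treated embryos the lowest, median and highest sums were 0.622, 4.65 and 74.4 RPKM, and 7 were below 10 RPKM. A different mixture made up each control sum, with Bbc3 (43.9%), Bcl2l11 and Bid in replicate 1, Bbc3 (99.8%) in replicate 2, and Bcl2l11 (88.1%), Bax and Bak1 in replicate 3. No pro-death member on its own set every control embryo above every treated embryo. The sums were not tested, and how often sums of other genes separate these embryos was not examined. Pro-survival sums were 174, 297 and 521 RPKM in control embryos and 77.7 to 1249 RPKM in treated embryos, and here the ranges overlapped.

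**Figure D3:**
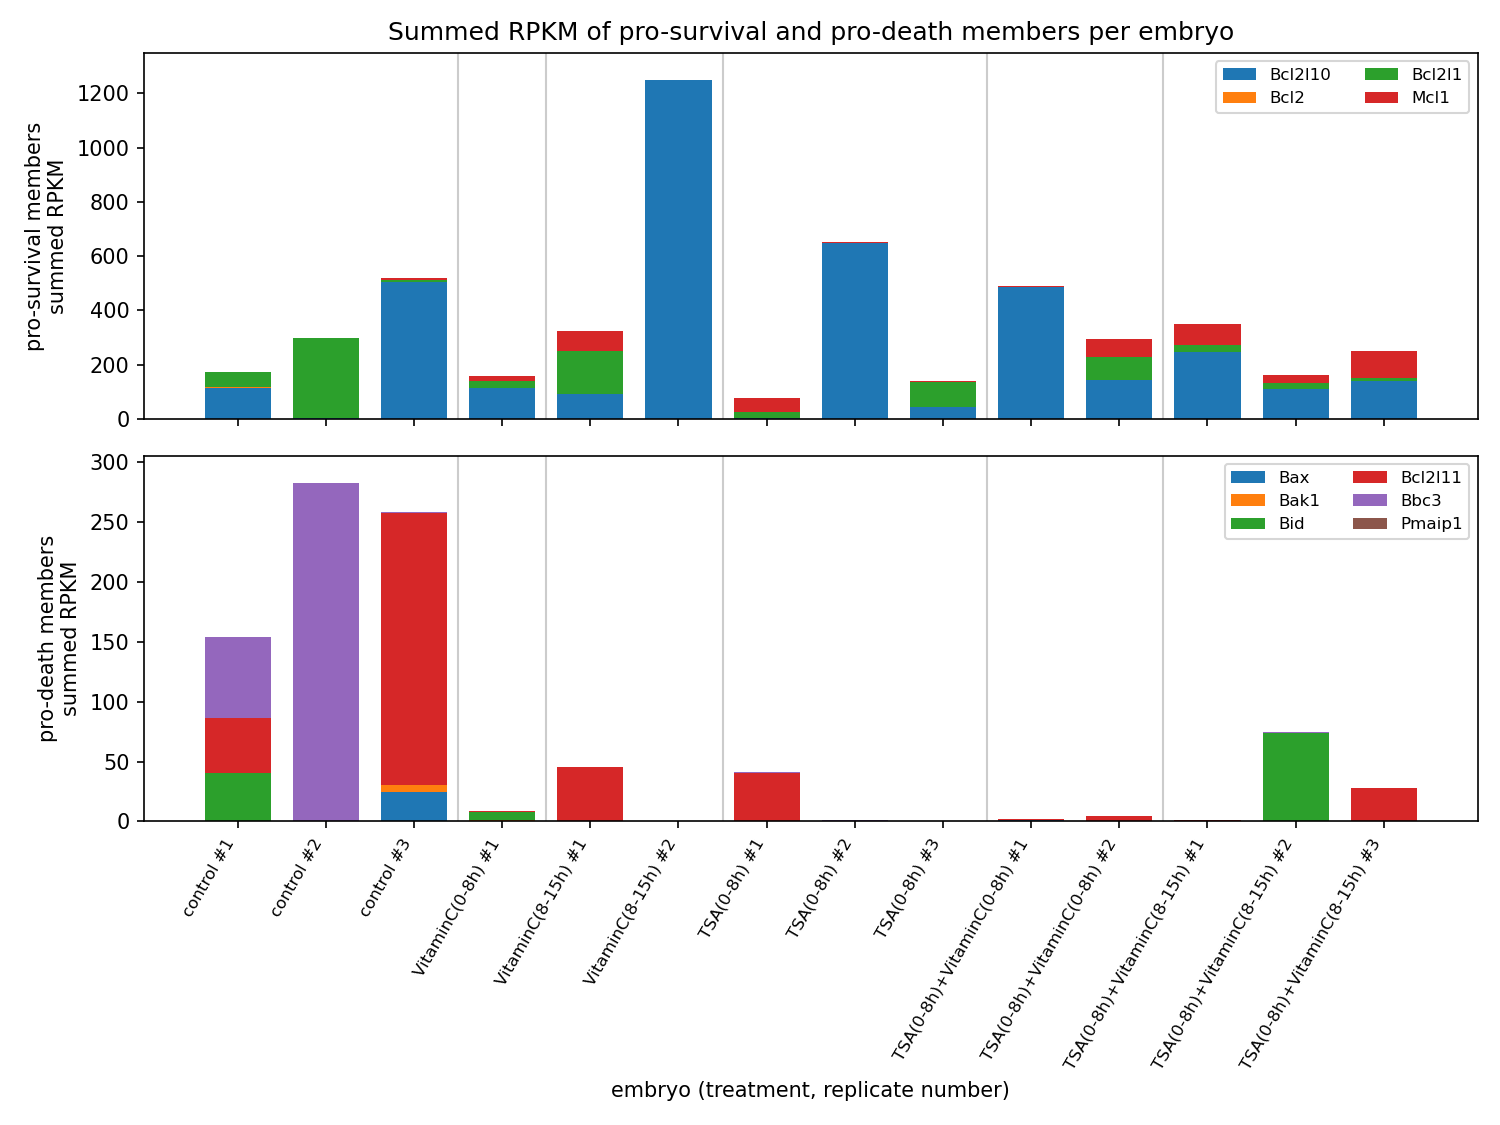
Summed RPKM of the 4 pro-survival members (upper panel) and the 6 pro-death members (lower panel) in each embryo, stacked by member, with both axes starting at 0 and differing in scale. The 3 control embryos have the 3 highest pro-death sums (154, 283 and 258 RPKM), made of different members.

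The balance of both sides was described as the log2 ratio of pro-survival to pro-death RPKM. It was 0.17, 0.07 and 1.01 in control embryos, 0.92, 9.62 and 7.79 in TSA(0-8h) embryos and 8.37, 1.11 and 3.17 in TSA(0-8h)+VitaminC(8-15h) embryos. The VitaminC(0-8h) embryo had a ratio of 4.12, both VitaminC(8-15h) embryos had 2.82 and 10.95, and the TSA(0-8h)+VitaminC(0-8h) embryos had 8.00 and 5.98. Pro-survival RNA exceeded pro-death RNA in all 14 embryos, and the ratio was above that of every control embryo in 10 of the 11 treated embryos. With the highest transcript entry of each gene in place of the sum, that held for 9 of the 11. Without Bcl2l10 the ratios of the control embryos were -1.40, 0.05 and -3.95, and pro-survival RNA was the larger in 11 of 14 embryos. The ratio adds members that differ in potency and says nothing of protein, and no test was made of it.

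None of the 10 members passed an adjusted p of 0.05 in limma in any of the 5 comparisons. For TSA(0-8h)+VitaminC(8-15h) against control, 3 members passed the filter on low values (Bcl2l10, Bcl2l1 and Mcl1). Of these, 1 (Mcl1) had an unadjusted p under 0.05 against 17.7% of genes. Mcl1 was also the 1 with groups without overlap, against 21.3% of genes, and 0 of 3323 genes (0%) were called. For TSA(0-8h) against control, 2 members passed the filter, 0 had an unadjusted p under 0.05 against 14.9% of the 2490 genes tested, 0 had groups without overlap against 18.4%, and 0% of genes were called. For TSA(0-8h)+VitaminC(8-15h) against TSA(0-8h), 3 members passed, 0 had an unadjusted p under 0.05 against 18.2% of 3140 genes, 0 had groups without overlap against 21.6%, and 0% of genes were called. For any TSA against no TSA, 5 members passed (Bid and Bcl2l11 in addition), 0 had an unadjusted p under 0.05 against 4.91% of 7600 genes, and 1 gene (0.0132%) was called. For any VC against no VC, the same 5 members were tested, 1 (Bcl2l10) had an unadjusted p under 0.05 against 7.91% of genes, and 2 genes (0.0263%) were called. Mcl1 for TSA(0-8h)+VitaminC(8-15h) against control was the 1 call among the members with limma-voom, which called 305, 50, 260, 1 and 2 genes in these comparisons in the same order. Of the 18 exact permutation tests of single members, 2 gave an unadjusted p under 0.05, those of Bak1 for TSA and Mcl1 for VC.

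**Figure D4:**
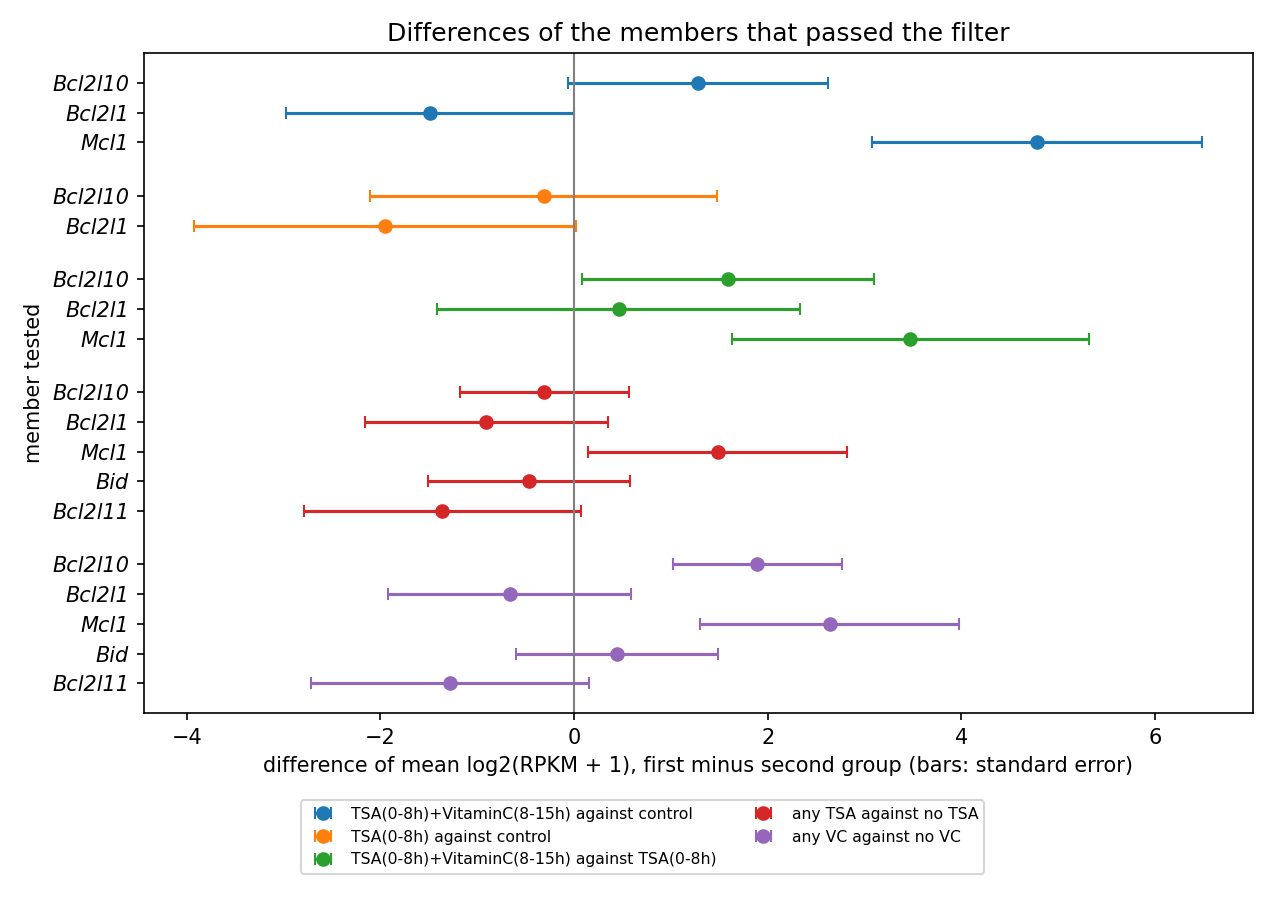
Difference of mean log2(RPKM + 1), first minus second group, with its standard error, for the members that passed the filter in each of the 5 comparisons. Mcl1 for TSA(0-8h)+VitaminC(8-15h) against control has the largest difference shown (4.78, SE 1.70), and most intervals of 1 standard error reach or cross 0.

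The wider pathway was present but was not called either. In 6 lists of 56 genes (16 other Bcl2 family genes, 13 of the caspases and apoptosome, 5 inhibitors of apoptosis, 8 of the death receptor pathway, 9 of the p53 axis and 5 mitochondrial partners), 0 genes rose and 0 fell in any of the 5 comparisons. Of the 56 genes, 15 were tested in TSA(0-8h)+VitaminC(8-15h) against control, 11 in TSA(0-8h) against control, 15 in TSA(0-8h)+VitaminC(8-15h) against TSA(0-8h), and 28 in each fit of all 14 embryos. An unadjusted limma p under 0.05 was seen for 0, 2 and 3 of them in the comparisons of 3 against 3, 2 for any TSA and 0 for any VC. Of all genes tested, the shares with such a p were 17.7%, 14.9%, 18.2%, 4.91% and 7.91% in the same order. The shares called were 0%, 0%, 0%, 0.0132% and 0.0263%. The list genes tested had median differences of -0.86, -0.33 and 0.38 in the comparisons of 3 against 3, where the medians of all genes tested were 0.78, -0.40 and 1.20. For any TSA their median difference was -0.36 and that of all genes -0.01, and for any VC the medians were 0.18 and 0.51. In the p53 axis, 2 genes were above 10 RPKM in every embryo, Mdm4, an inhibitor of p53, at 310 to 1580 RPKM and Mdm2, which marks p53 for degradation, at 11.7 to 245 RPKM. Cdkn1a, a cell cycle brake that p53 switches on, ranged from 0 to 2010 RPKM. Of the 9 genes of this list, 3 stayed under 1 RPKM in all embryos. Trp53, the gene of p53 itself, was among them, with at most 0.489 RPKM. The anion channel Vdac1, in the membrane that Bax and Bak1 open, was at 6.56 to 333 RPKM.

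Other genes downstream of the membrane varied as widely as the members did. Diablo, which leaves opened mitochondria and blocks inhibitors of apoptosis, was at 0 to 347 RPKM, Aifm1 at 0.0966 to 588 RPKM and Casp2 at 0.0441 to 118 RPKM. Among the inhibitors of apoptosis, Birc6 stayed between 3.76 and 48.9 RPKM, while Birc2 (0.0703 to 199 RPKM) and Birc5 (0.198 to 330 RPKM) were near 0 in some embryos. Bcl2l13, Bnip3 and Bnip3l, mitochondrial relatives known for their role in mitophagy, had medians of 29.8, 11.3 and 11.7 RPKM. Death receptor genes were low, with medians of 1.04 RPKM for Ripk1, 0.174 RPKM for Tnfrsf10b and 0.122 RPKM for Fadd. Of the other mitochondrial partners, Vdac2 had a median of 1.75 RPKM and Tmbim6 one of 2.49 RPKM.

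Among 4412 genes with at least 1 RPKM in at least 7 embryos, those whose log2(RPKM+1) followed Bcl2l10 most closely over the 14 embryos were Hspd1 (r = 0.85), Kif2a (r = 0.84) and Msl1 (r = 0.84). Those nearest to Bcl2l1 were Slc7a5 (r = 0.89), Shroom4 (r = 0.88) and Lrba (r = 0.86). These correlations describe 14 embryos that differ in depth and in the number of genes seen, and they were the highest of many.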

How the data were processed

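RNA of individual SCNT embryos was sequenced, with 1 library for each. The authors mapped reads to mm9 with TopHat2, counted them on exons and deposited RPKM values per RefSeq transcript. Of 25650 entries, 25250 were matched to symbols with RefSeq's gene table. Entries of 1 gene were summed and the rest kept under their own identifier, which gave 20636 genes. The steps between RPKM values gave back whole reads for 14531 of 14532 entries with reads in at least 2 embryos, within 0.02 reads. The smallest length that did so was taken, so lengths and reads of entries seen in few embryos are lower bounds. Since the deposited values are RPKM and not counts, edgeR, which the authors applied to counts, was replaced by limma 3.58.1 (R 4.3.3; lmFit, eBayes with trend) on log2(RPKM+1). This scale understates changes of low genes.

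The comparisons of 3 against 3 took the genes that reached 1 RPKM in every embryo of one group or of the other. In the additive fits of any TSA and any VC over all 14 embryos, genes with at least 1 RPKM in at least 3 embryos were tested. P-values were adjusted by Benjamini-Hochberg over all genes tested, at 0.05. Exact permutation tests used all 3003 splits, correlations 100000 permutations (scipy 1.17.1, Python 3.11.15). The fit was tested on simulated data. All members, and the 3 genes of highest median in each list, are named, and genes of a list past the threshold would have been. Trp53 is named in addition, as the gene of p53. Members and lists were chosen with earlier results of these data known. Gene coordinates are from GENCODE on NCBIM37 (mm9), promoters from RefSeq on GRCm38.p6. Alternatives were a pseudocount of 0.1, no filter, a filter at 5 RPKM or blind to the groups, median-ratio scaling, quantile normalization, eBayes without trend, replicate or lane blocks, 1 fit of all embryos, leaving out embryos, single transcript entries and, chosen after seeing the data, limma-voom on recovered reads. Floors of 3 reads cover counting error only. Protein sequences were not analysed here.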

Additional observations from a re-analysis of the deposited data

Results flagged for a closer look

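In the sets of 8 TSA-treated embryos, 6 without TSA, 8 with VC and 6 without VC, 28 sets of member values were checked for 1 embryo far from the others, and 8 held one. Chance would mark at most about 1 set in 20 if the values were spread normally. That does not hold for members at 0 in most embryos, which are marked by any single high value. The sets also share embryos. Bax stood apart at 24.4 RPKM in control replicate 3, among embryos without TSA and among those without VC. It also stood apart at 1.41 RPKM in TSA(0-8h)+VitaminC(0-8h) replicate 1, among TSA-treated and among VC-treated embryos. Bak1 stood apart at 5.99 RPKM in control replicate 3, among embryos without TSA and among those without VC. Bid stood apart at 74.2 RPKM in TSA(0-8h)+VitaminC(8-15h) replicate 2 among TSA-treated embryos, and at 40.9 RPKM in control replicate 1 among embryos without VC.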

How the results depend on the processing

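In the alternatives run, the number of members called stayed at 0 in all 5 comparisons, except that limma-voom called 1 (Mcl1) for TSA(0-8h)+VitaminC(8-15h) against control. Of 18 log2 fold changes, 12 kept their direction in every alternative, Mcl1 among them in each comparison that tested it. For TSA(0-8h)+VitaminC(8-15h) against control, Mcl1 ranged from 4.23 to 5.71 with 1 embryo left out, and its adjusted p from 0.00290 to 0.725 over all alternatives. The others turned for Bcl2l10 and Bcl2l1. With 1 embryo left out, Bcl2l10 ranged from -0.63 (without control replicate 2) to 2.76 for TSA(0-8h)+VitaminC(8-15h) against control, from -2.22 to 1.41 for TSA(0-8h) against control (0.11 without control replicate 1, 1.17 without control replicate 3 and 1.41 without TSA(0-8h) replicate 1), from -0.13 (without TSA(0-8h) replicate 1) to 3.42 for TSA(0-8h)+VitaminC(8-15h) against TSA(0-8h), and from -1.05 to 0.36 for any TSA (0.27 without control replicate 3 or VitaminC(8-15h) replicate 2, 0.36 without TSA(0-8h) replicate 1). Bcl2l1 ranged from -1.19 (without TSA(0-8h) replicate 2) to 1.80 for TSA(0-8h)+VitaminC(8-15h) against TSA(0-8h), and from -1.59 to 0.16 (without VitaminC(8-15h) replicate 2) for any VC. Median-ratio scaling turned Bcl2l10 to 0.17 for TSA(0-8h) against control and Bcl2l1 to -0.59 for TSA(0-8h)+VitaminC(8-15h) against TSA(0-8h), where quantile normalization gave -1.24. The causes were not tested. Without Bcl2l10 the mean log2 ratio of pro-survival to pro-death RNA in control embryos was -1.76 instead of 0.42.

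Counts of all genes called moved more. Outside leave-one-out they reached 305, 107, 260, 3 and 5 in the 5 comparisons, in the order of the report, against 0, 0, 0, 1 and 2, and with 1 embryo left out 72, 276, 298, 2 and 5. The median difference of all genes was 0.78, -0.40, 1.20, -0.01 and 0.51, and with median-ratio scaling -0.02, 0.04, -0.05, -0.07 and 0.10, while the share of higher genes among those with an unadjusted p under 0.05 went from 78.7%, 36.7%, 88.1%, 46.4% and 83.9% to 58.7%, 50.0%, 55.0%, 36.8% and 51.2%. Same-numbered embryos of the groups of 3 had the same lane in their library identifiers. Their deviations did not correlate (-0.05 to 0.05), so the numbers were not taken to pair them. With the replicate block, 0 members and 7, 5, 153, 1 and 0 genes were called. Members seen in under 3 reads cannot be compared at this depth.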
